A study of Mus musculus with 2 samples.

Results

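Neuropeptide genes and the genes of their receptors were followed through the cells of fetal mouse lung sorted for type 2 innate lymphoid cells (ILC2s). The members were the 8 genes Calca, Gal, Calcrl, Ramp1, Ramp2, Ramp3, Nmur1 and Vipr2, taken by symbol from the 32285 genes of the matrix, and all 8 were found. They were chosen by their UMI levels in ILC2-like cells and by differences between litters seen in earlier results of these data, so these values are given as description. Calca and Ramp3 also stand on a list of dexamethasone-exposure genes that the study drew from these same cells.

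Wild-type C57BL/6J mice, 9 weeks old and pregnant, drank water with dexamethasone (DEX, a synthetic glucocorticoid) at 1.3 µg/ml or phosphate-buffered saline (PBS) in its place, beginning on gestation day 12, and fetal lungs were taken on day 18. Lungs were pooled by mother, with 8 and 9 fetuses in litters DEX-1 and DEX-2 and 5 and 8 fetuses in litters PBS-1 and PBS-2, and live CD45+ Lin- ST2+ cells were sorted. Each litter carried its own hashtag antibody, and all were loaded together for 5′ single-cell RNA sequencing, which counts unique molecular identifiers (UMIs). The hashtag was therefore the replicate, with 2 per group, and fetuses under the same hashtag could not be separated. The labels and the study's methods tie each hashtag to a separate mother, whereas a legend of the study gives a single dam per group for this experiment. The labels are followed here, and if the legend holds, the p-values measure the spread between pools from the same dam. Pairs of litter values are given with litter 1 first.

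Of 7268 barcodes with a single hashtag, 2070 formed ILC2-like clusters and 3224 were basophil or mast-like, while 288 were endothelial-like, 450 epithelial-like, 249 macrophage or monocyte-like, 198 mesenchymal-like and 199 B-like, and 590 stayed unnamed. Clusters were named from marker genes and built without the members. The 10 ILC2 markers summed to between 4189 and 4683 UMIs per 1000000 UMIs of the class (CPM) in the 4 ILC2-like litters, against 37.6 to 45.8 CPM for the 7 endothelial markers and 0.762 to 1.59 CPM for the 7 neuroendocrine markers. Basophil or mast cell markers summed to 405 to 547 CPM and T cell markers to 469 to 534 CPM in the same sums. The erythroid markers stood apart in DEX-1, at 211 CPM against 8.74 to 13.2 CPM in the other litters. ILC2-like sums held 3774270 to 5202319 UMIs per litter, so that 3 UMIs corresponded to between 0.577 and 0.795 CPM.

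Calca encodes calcitonin gene-related peptide (CGRP) and, by alternative splicing, calcitonin, and the UMI counts of the gene do not separate these transcripts. Calcrl encodes the calcitonin receptor-like receptor, which reaches the cell surface with a receptor activity-modifying protein: paired with RAMP1 it is the CGRP receptor, and paired with RAMP2 or RAMP3 it binds adrenomedullin, a peptide known for its role in the growth of blood and lymph vessels. Nmur1 encodes the receptor for neuromedin U and Vipr2 a receptor for vasoactive intestinal peptide, both known to stimulate ILC2s, whereas CGRP is known to restrain their proliferation and galanin, the product of Gal, is a neuropeptide of nerves and endocrine cells.

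The genes lie in GRCm38 at chromosome 7, 114631478 to 114636357 (Calca), chromosome 2, 84330626 to 84425411 (Calcrl), chromosome 1, 91179822 to 91225196 (Ramp1) and 86386303 to 86426228 (Nmur1), chromosome 11, 101246028 to 101259546 (Ramp2) and 6658521 to 6677475 (Ramp3), chromosome 12, 116077726 to 116146261 (Vipr2), and chromosome 19, 3409915 to 3414544 (Gal), and all are protein coding. The 250 bases upstream of the start sites of Calca, Ramp1 and Ramp3, the genes on which the comparisons below turn, are shown 5′ to 3′ from RefSeq (GRCm38.p6), with matches to the motifs searched in capitals. They are chr7:114636358-114636607 on the minus strand for Calca, chr1:91179572-91179821 on the plus strand for Ramp1 and chr11:6658283-6658532 on the plus strand for Ramp3.
Calca: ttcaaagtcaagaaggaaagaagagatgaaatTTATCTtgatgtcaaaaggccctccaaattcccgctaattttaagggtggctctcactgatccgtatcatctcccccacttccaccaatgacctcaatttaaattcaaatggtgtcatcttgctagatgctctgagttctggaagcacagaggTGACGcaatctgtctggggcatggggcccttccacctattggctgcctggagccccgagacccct
Ramp1: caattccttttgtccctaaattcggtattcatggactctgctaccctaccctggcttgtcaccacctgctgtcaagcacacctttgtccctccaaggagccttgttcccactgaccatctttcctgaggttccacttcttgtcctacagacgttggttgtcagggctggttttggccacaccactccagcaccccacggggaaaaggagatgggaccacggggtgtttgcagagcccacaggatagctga
Ramp3: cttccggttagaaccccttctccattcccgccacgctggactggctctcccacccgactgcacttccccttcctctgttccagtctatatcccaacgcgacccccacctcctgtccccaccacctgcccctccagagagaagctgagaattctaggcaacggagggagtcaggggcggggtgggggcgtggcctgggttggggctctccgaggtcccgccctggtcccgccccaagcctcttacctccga
The motifs were TGACG, the core of the cAMP response element, TGTTCT, the core of the glucocorticoid response element, and AGATAA, the GATA core, searched on both strands over 300 bases (250 before to 50 after the start) in the 7 members with a RefSeq window, which excludes Ramp2. The Calca window held TGACG starting at base -65 and AGATAA, on the other strand, at -218. TGACG was also found past the start of Ramp1 and of Gal, and TGTTCT at the start of Calcrl, whereas the windows of Ramp3, Nmur1 and Vipr2 held none of these letters. These matches are letters only, and binding was not measured. Among 32851 windows of the same length, 20.8% held TGACG, 19.0% TGTTCT and 11.2% AGATAA.

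Calca was the most abundant member in ILC2-like cells. It measured 4744 and 3180 CPM in the DEX litters against 5041 and 1742 CPM in the PBS litters, a mean of 3677 ± 1526 CPM (SD, n = 4). Every litter of ILC2-like cells lay above every litter of every other class. It was higher in DEX-1 and PBS-1 than in DEX-2 and PBS-2, an order that was also seen in basophil or mast-like, endothelial-like and epithelial-like cells, whereas PBS-2 was highest in mesenchymal-like cells at 881 CPM. Basophil or mast-like cells followed at 643 ± 320 CPM, then mesenchymal-like cells at 454 ± 292, endothelial-like cells at 307.4 ± 199.7 and epithelial-like cells at 204 ± 111 CPM, and these 4 classes overlapped with their neighbours in rank. B-like cells, at 20.8 ± 24.4 CPM, and macrophage or monocyte-like cells, at 12.2 ± 9.56 CPM, lay below all of them.

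**Figure D1:**
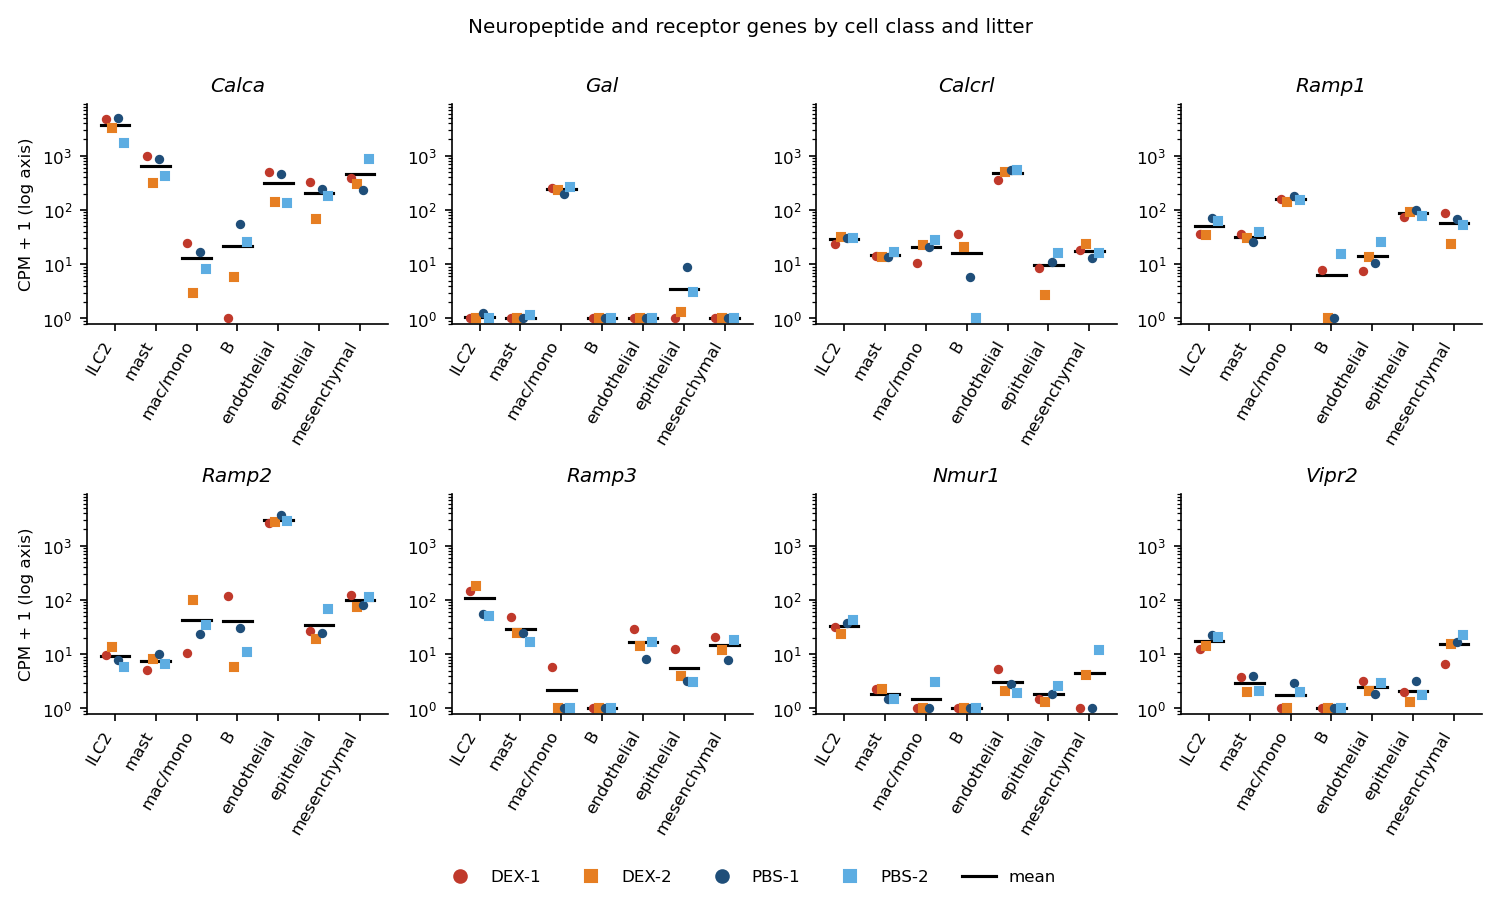
Levels of the 8 genes (CPM + 1, log axis) in 7 named classes, with 1 point per litter and a bar for the mean of 4 litters. Calca, Ramp3 and Nmur1 are highest in ILC2-like cells, Calcrl and Ramp2 in endothelial-like cells, and Gal in macrophage or monocyte-like cells.

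Per cell, ILC2-like cells held a median of 15 Calca UMIs and up to 400. At least 10 UMIs were present in 60.0% of them, and 9.95% held none. After thinning every cell to 2000 UMIs, 79.3% of ILC2-like cells (95% Wilson interval 77.4 to 81.0%) held a Calca UMI. In B-like cells, used as a rough level of free RNA, the share was 1.62% (0.553 to 4.66%). Before thinning these shares were 90.05% and 3.02%, at median depths of 7179 and 3528 UMIs. These intervals cover counting error only.

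Calca UMIs were found in fewer cells of the other classes. A Calca UMI was present in 52.9% of basophil or mast-like cells (37.3% after thinning) and in 32.3% of mesenchymal-like, 19.1% of endothelial-like and 18.4% of epithelial-like cells. In endothelial-like cells 26 cells (9.03%) held at least 10 UMIs and 92.5% of the class's Calca UMIs. Of these cells 61.5% also held a UMI of Gata3, the transcription factor that defines ILC2s, compared with 6.44% of endothelial-like cells without Calca, and 80.8% had a high Scrublet doublet score, compared with 9.01%. Epithelial-like cells were alike, with 41.0% of 39 Calca-rich cells holding Gata3 against 1.09% of cells without Calca, as were mesenchymal-like cells, with 54.5% of 22 against 4.48%. When cells with high doublet scores were left out, Calca measured 78.2 ± 66.7 CPM in endothelial-like and 68.1 ± 40.9 CPM in epithelial-like cells. It was 418 ± 599 CPM in mesenchymal-like cells, where 1 litter reached 1312 CPM. Of the 6 B-like cells with a Calca UMI, 50% held a Gata3 UMI and 66.7% had a high doublet score. Without high scores, Calca in B-like cells measured 2.67 ± 3.09 CPM on 2 UMIs. The score cut took in 32.2% of barcodes called doublets by their hashtags, so doublets can remain after it. Whether doublets add to the B-like level used for free RNA was not tested.

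Basophil or mast-like cells differed from endothelial-like, epithelial-like and mesenchymal-like cells in their shares with Gata3 and high doublet scores. They held 500 cells (15.5%) with at least 10 Calca UMIs. Of these cells 3.80% held a Gata3 UMI, against 0.724% of cells without Calca, and 3.20% had a high doublet score, against 0.987%. Both shares were low but higher in the Calca-rich cells. Calca measured 613 ± 288 CPM without the high scores. The Calca-rich cells carried a median of 565.5 UMIs of basophil or mast cell markers, more than the 191 of cells without Calca, at median depths of 9177 and 6961 UMIs. By cluster, Calca measured 967, 1026 and 730.2 CPM in the 3 clusters led by the mast cell protease genes Cma1 and Tpsb2, 217 CPM in the cluster led by Gzmb and Scin, and 117 CPM in the cluster with the basophil protease gene Mcpt8 among its leading genes. The share of Calca-rich cells by litter was 24.7% and 9.43% in DEX litters against 18.8% and 10.6% in PBS litters, so DEX and PBS litters overlapped.

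**Figure D2:**
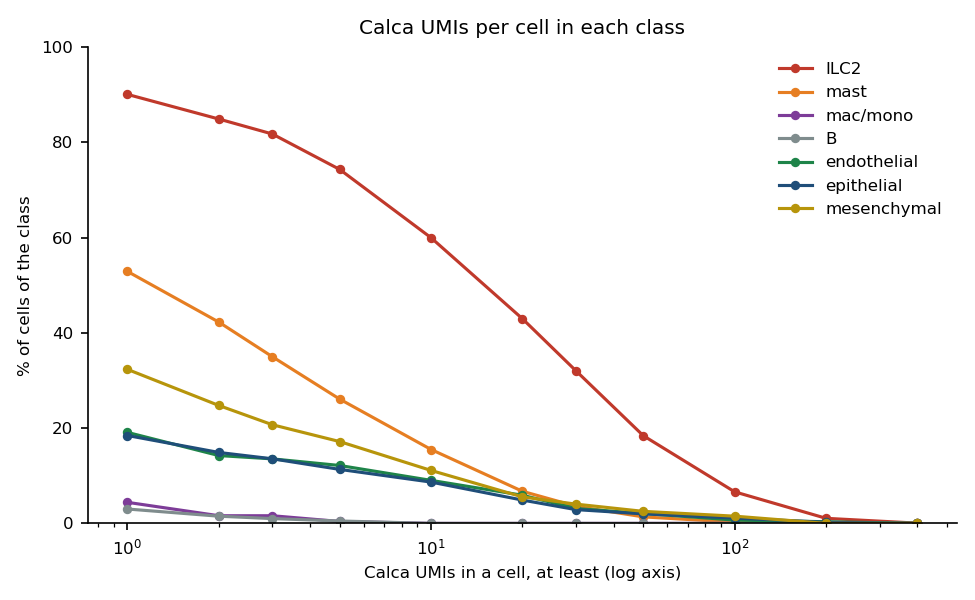
Percentage of cells in each class that held at least the number of Calca UMIs on the x axis (log axis). The ILC2-like curve stays highest, at 60.0% of cells with at least 10 UMIs, followed by basophil or mast-like cells at 15.5%.

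Gal was almost undetected in ILC2-like cells. A single Gal UMI was counted in 2070 ILC2-like cells, and none in endothelial-like cells. In macrophage or monocyte-like cells Gal measured 259 and 231 CPM in the DEX litters against 199 and 265 CPM in the PBS litters, with 534 UMIs in all. A Gal UMI was present in 47.8% of these cells, or 26.3% after thinning (21.1 to 32.2%), against 0.0483% of ILC2-like cells before thinning. Both DEX litters lay within the range of the PBS litters, and the log2 fold change of 0.06 ± 0.19 (SE) had an edgeR adjusted p of 0.988.

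Calcrl, the shared receptor subunit, was low in ILC2-like cells and high in endothelial-like cells. ILC2-like cells measured 22.7 and 30.2 CPM in the DEX litters against 29.5 and 29.99 CPM in the PBS litters. Endothelial-like cells measured 363 and 491 CPM in the DEX litters against 549.9 and 538 CPM in the PBS litters. The litter ranges of these classes did not overlap, while ILC2-like cells overlapped with macrophage or monocyte-like cells at 19.6 ± 7.50 CPM and with B-like cells, which ran from 0 to 34.8 CPM on 10 UMIs. After thinning, 5.58% of ILC2-like cells (4.66 to 6.66%) and 2.70% of B-like cells (1.16 to 6.17%) held a Calcrl UMI. The level of the whole ILC2-like class was thus not resolved from that of B-like cells. Without high doublet scores B-like cells ran from 0 to 28.9 CPM and still overlapped with ILC2-like cells, at 22.8 to 30.4 CPM. Within the endothelial-like class, the small cluster of 16 cells reached 775 CPM and the larger one of 272 cells 463 CPM.

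Ramp2 also had its highest level in endothelial-like cells. There it measured 2615 and 2719 CPM in the DEX litters against 3694 and 2837 CPM in the PBS litters. In ILC2-like cells it lay between 4.81 and 12.5 CPM, and in basophil or mast-like cells between 4.22 and 9.23 CPM. A Ramp2 UMI was found in 93.9% of thinned endothelial-like cells and in 1.17% of thinned ILC2-like cells. The latter share was no higher than the 3.24% of B-like cells. Without high doublet scores Ramp2 measured 11.8 ± 4.98 CPM in B-like cells, on 8 UMIs, and 8.13 ± 3.06 CPM in ILC2-like cells. Calcrl and Ramp2 were detected together in 54.7% of thinned endothelial-like cells, 152 cells against 148 for independent detection.

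Ramp1, which makes the CGRP receptor, had its highest level in macrophage or monocyte-like cells, at 158 ± 17.8 CPM, followed by epithelial-like cells at 86.0 ± 12.4, mesenchymal-like cells at 57.5 ± 27.7 and ILC2-like cells at 50.1 ± 18.5 CPM. An unnamed cluster of 227 cells led by the progenitor genes Prtn3, Mpo and Myb reached 204 CPM. Ramp3 was highest in ILC2-like cells at 107 ± 64.9 CPM, and its lowest ILC2-like litter, at 49.6 CPM, was just above the highest basophil or mast-like litter, at 48.1 CPM. Nmur1 was highest in ILC2-like cells without overlap, at 32.8 ± 7.88 CPM against 3.52 ± 5.14 in mesenchymal-like cells, the next class, and 0 of 199 B-like cells held a UMI, which allows a share of cells with a UMI of up to 1.51% (3 of 199 cells). Vipr2 was at 16.4 ± 4.88 CPM in ILC2-like cells and overlapped with mesenchymal-like cells at 14.3 ± 6.64 CPM.

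The RAMP genes are set side by side as UMIs, since a 5′ UMI stands for a molecule whatever its length. Whether the genes are captured equally well was not tested, so shares between genes are shares of UMIs. RAMP UMIs in endothelial-like cells were Ramp2 for 98.6 to 99.5% in the 4 litters. In macrophage or monocyte-like cells Ramp1 took 57.7 to 91.9%, and in ILC2-like cells Ramp2 took only 4.13 to 5.54%. Each ILC2-like litter held 517 to 882 RAMP UMIs. The division between Ramp1 and Ramp3 in ILC2-like cells differed between the litter groups. Ramp3 made up 76.9% and 79.5% of RAMP UMIs in DEX litters but 41.6% and 42.6% in PBS litters. Total RAMP UMIs exceeded those of Calcrl 5.80 times in ILC2-like and 6.18 times in endothelial-like cells.

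**Figure D3:**
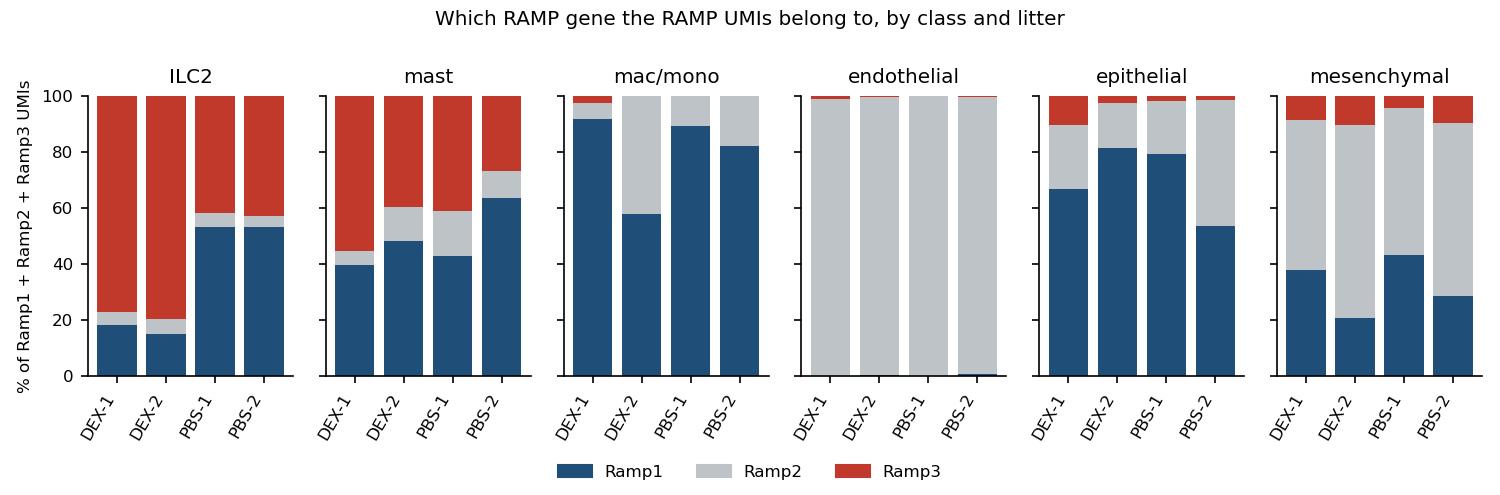
Percentage of Ramp1, Ramp2 and Ramp3 UMIs among all RAMP UMIs, by litter, in 6 classes. Endothelial-like cells are almost all Ramp2, and ILC2-like cells have mean Ramp3 shares of 42.1% in PBS litters and 78.2% in DEX litters.

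The comparison of DEX with PBS litters asks how maternal glucocorticoid relates to these genes in fetal ILC2s. In ILC2-like cells Ramp3 was higher and Ramp1 lower after DEX. Ramp3 measured 145 and 179 CPM in the DEX litters against 54.6 and 49.6 CPM in the PBS litters, a log2 fold change of 1.65 ± 0.12 (SE, edgeR). Ramp1 measured 34.9 and 33.6 CPM in the DEX litters against 69.8 and 61.9 CPM in the PBS litters, a log2 fold change of -0.93 ± 0.11. For both genes the DEX and PBS litters did not overlap, in opposite directions. Leaving out any 1 litter kept Ramp3 between 1.47 and 1.81 and Ramp1 between -1.01 and -0.85 on the log2 scale. The thinned share of cells with a Ramp3 UMI was 23.3% and 24.3% in DEX litters against 10.6% and 9.36% in PBS litters, and for Ramp1 it was 6.23% and 5.79% against 11.2% and 10.4%.

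The other receptors differed less. Vipr2 measured 11.3 and 13.2 CPM in the DEX litters against 21.6 and 19.4 CPM in the PBS litters, a log2 fold change of -0.73 ± 0.18. Nmur1 measured 30.2, 23.1, 37.1 and 40.9 CPM in the same order, a log2 fold change of -0.54 ± 0.15. Both genes were lower in each DEX litter than in each PBS litter. The thinned shares of cells with an Nmur1 UMI, 5.49% and 5.12% in DEX against 5.18% and 6.18% in PBS litters, overlapped, and the fold change was -0.18 over thinned cells. Ramp2 rested on 25 to 47 UMIs per litter and measured 8.77, 12.5, 6.86 and 4.81 CPM, a log2 fold change of 0.88 ± 0.28 at a level where its share of cells did not exceed that of B-like cells.

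Calca and Calcrl overlapped between the groups. Calca gave a log2 fold change of 0.24 ± 0.31, and the DEX litters lay between the PBS litters. Without PBS-1 the value was 1.18, without DEX-1 it was -0.06 and without PBS-2 it was -0.34, so its direction changed with the litter left out. Calcrl gave -0.17 ± 0.17, and DEX-1 was the lowest litter while DEX-2 was the highest.

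**Figure D4:**
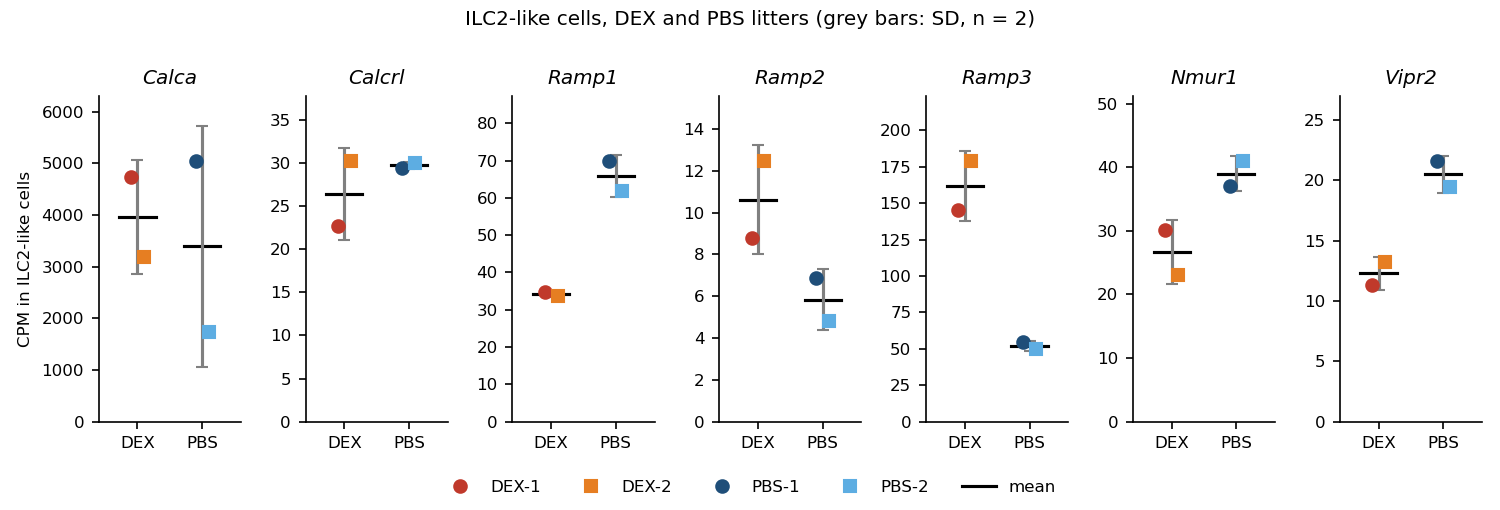
CPM of 7 genes in ILC2-like cells, with 1 point per litter, black bars for the group mean and grey bars for the SD (n = 2 each, linear axes from 0). Ramp3 lies higher and Ramp1, Nmur1 and Vipr2 lower in both DEX litters, whereas Calca and Calcrl overlap.

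Of the 7 members tested, Ramp1 and Ramp3 passed an adjusted p under 0.05 in a fit over 10617 genes, of which 2.34% passed, 1.11% higher and 1.22% lower in DEX litters. Litters did not overlap for Ramp1, Ramp2, Ramp3, Nmur1 and Vipr2, as for 42.4% of all tested genes (20% higher and 22.4% lower in DEX litters). Since the members were chosen with this comparison known, nothing is read from these counts.

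ILC2-like cells were divided into 6 states by clustering without the members, and the levels across states are a description. State 0 (451 cells) was cycling and led by Ube2c and Birc5, state 1 (315 cells) by Cd7 and Ripor2, state 2 (794 cells) by Ctla2a and Ctla2b, state 3 (248 cells) by Klf4 and Jdp2 beside Ramp3 itself, and state 4 (230 cells) by Pla2g7 and Hdc. State 5, with 32 shallow cells, is left out below. Calca was lowest in state 1, at 1143 ± 423 CPM (SD, n = 4 litters), and in state 0, at 2052 ± 749, and had means of 5376 ± 2516, 5888 ± 2383 and 5931 ± 4479 CPM in states 2, 3 and 4. The spread between litters in these last states reached from 1680 CPM in PBS-2 to 11882 CPM in DEX-1, both in state 4, so their order is not resolved.

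Among states 0 to 4, Ramp1, Nmur1 and Vipr2 had their highest mean in state 2, Calcrl in state 4 and Ramp3 in state 3. Calcrl was highest in state 4 at 61.0 ± 14.4 CPM and lowest in state 1 at 13.9 ± 6.36, with ranges that did not overlap. Ramp1 was lowest in state 4 at 15.99 ± 8.97 CPM and reached 60.8 ± 29.3 in state 2, and the highest litter of state 4, at 27.1 CPM, lay just under the lowest of state 2, at 27.4 CPM. Nmur1 was highest in state 2 at 46.1 ± 2.69 CPM and lowest in state 4 at 17.7 ± 5.02. Vipr2 was lowest in state 1 at 6.62 ± 2.65 CPM and highest in state 2 at 24.6 ± 5.53. For Ramp1 and Vipr2, state 2 overlapped with state 3, at 58.1 ± 14.7 and 23.6 ± 7.37 CPM.

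Ramp3 was highest in state 3, where it measured 397 and 451 CPM in the DEX litters against 156 and 89.8 CPM in the PBS litters. In state 2, the largest, it was 149.6 and 138 CPM in the DEX litters against 43.1 and 43.3 CPM in the PBS litters. In state 1 the litters were closer, at 144, 128, 90.8 and 106 CPM in that order. Ramp3 was higher in DEX litters without overlap in each of the 5 states, as were 19.4%, 17.8%, 18.4%, 17.4% and 18.4% of genes at 10 CPM or more in states 0 to 4. Ramp1 was lower in both DEX litters in 4 of the 5 states, against 19.8%, 18.1%, 19.9%, 17% and 18.8% of genes, and the litters overlapped in state 4, which held 23 Ramp1 UMIs. Vipr2 was lower in 4 states and Nmur1 in 2, and Calca was higher in state 0 alone, at 2855 and 2228 CPM against 2075 and 1049 CPM. The shares of genes are for each state alone, and the share without overlap in several states was not taken. All states come from the same 4 litters, so they are not separate replicates.

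State 3 itself took 11.8% and 19.6% of ILC2-like cells in DEX litters against 9.98% and 7.80% in PBS litters, and state 1 took 19.3% and 21.9% in DEX against 10.998% and 9.71% in PBS litters. With every state weighted equally, the Ramp3 log2 fold change was 1.48 and that of Ramp1 was -0.72.

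**Figure D5:**
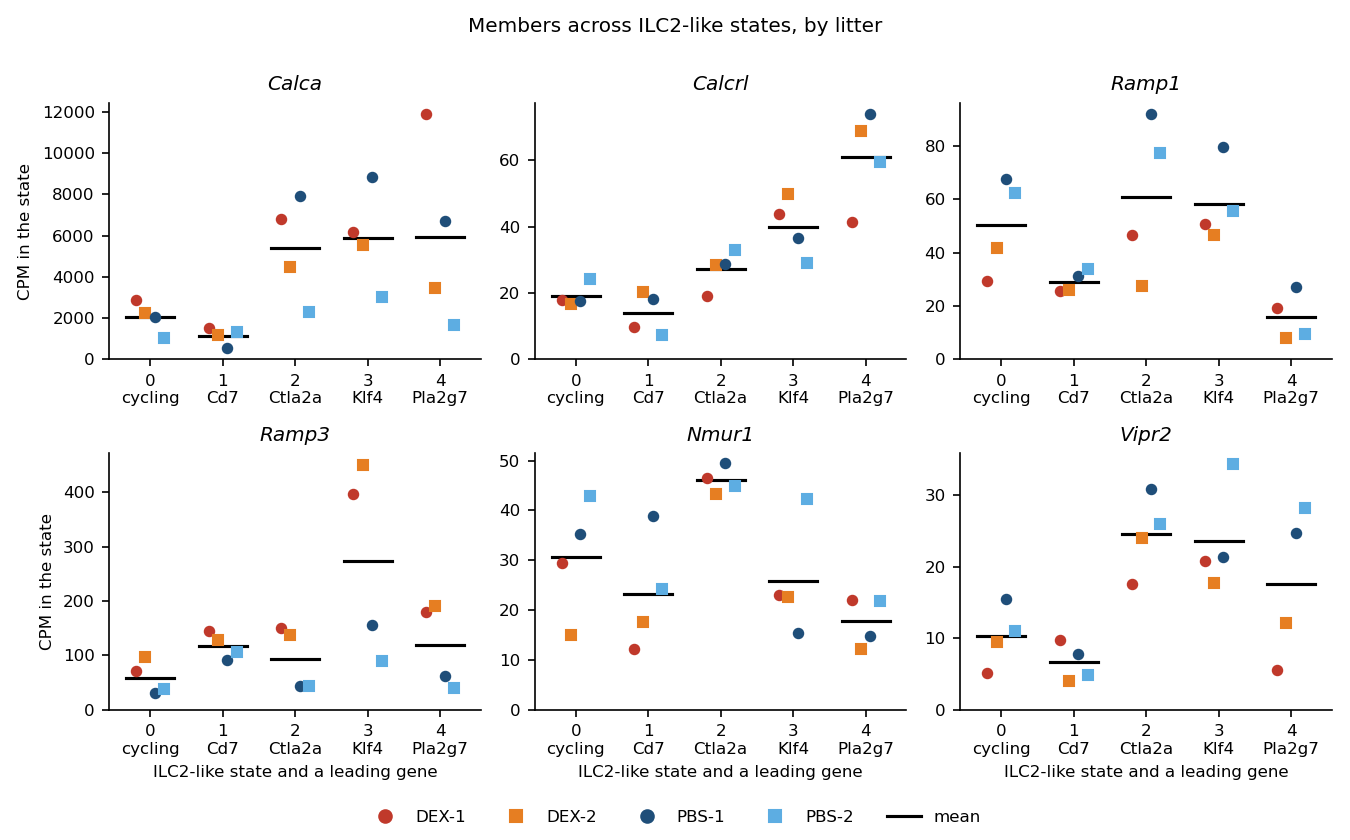
CPM of 6 genes in 5 ILC2-like states, with 1 point per litter and a bar for the mean of 4 litters (linear axes from 0). Ramp3 points of DEX litters lie above those of PBS litters in every state shown, and Calca is lowest in states 0 and 1.

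Calca-positive cells shared genes beyond the members. After thinning, cells with at least 2 Calca UMIs were compared with cells that held none, within each litter. The genes with the largest differences were Ctla2a and Ctla2b, which encode cathepsin inhibitor-like proteins, with median log2 ratios of 2.78 and 2.73 over the litters, followed by the phosphatase gene Ptpn13 (1.94), the integrin gene Itgav (1.65), Jdp2 (1.61), Rapgef2 (1.58), Klf5 (1.46), Dach2 (1.45), Plaur (1.45) and Ipmk (1.43). The lowest were Ms4a4b (-2.46), the chemokine gene Ccl5 (-2.16), Cd7 (-2.09), Lgals3 (-2.07) and the receptor gene Il18r1 (-1.83). The ratio of Cd7 ranged from -2.60 to -0.0040 over the litters, and that of Ms4a4b from -3.04 to -0.73. Ms4a4b, Cd7, Lgals3 and Il18r1 are leading genes of state 1, and Ctla2a and Ctla2b of state 2. A Calca UMI was present in 57.6% of thinned cells in state 1 against 85.3% in state 2 and 96.0% in state 3, so the compared cells came from the states in different proportions, and the part of state in these ratios was not tested. Among the members, Vipr2 was higher in Calca-positive cells of all 4 litters, with log2 ratios of 0.47 to 1.93. Its means were 26.4 and 7.98 CPM, and 76 of 83 thinned cells with Vipr2 held a Calca UMI. The Calca-negative side of Vipr2 thus rested on few cells. Ramp1 was higher by 0.34 to 0.43, while Ramp3 ranged from -0.14 to 1.57. Apart from the members, all genes named here were chosen for the size of these values.

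For the receptor subunits, joint detection in ILC2-like cells rested on few cells. Calcrl and Ramp3 were found together in 18 of 2044 thinned ILC2-like cells, against 19.0 for independent detection, Calcrl and Ramp1 in 10 against 9.65, and Ramp1 and Ramp3 in 25 against 28.8, with the litters pooled. Within litters the ratio of observed to independent detection ran from 0.59 to 1.43 for Calcrl and Ramp3, from 0 in DEX-2 to 2.29 in DEX-1 for Calcrl and Ramp1, with 0 to 4 joint cells per litter, and from 0.70 to 1.14 for Ramp1 and Ramp3, and no departure from independence was tested. Calca and Ramp3 were found together in 293 cells against 269, and Ramp3 was detected in 18.1% of cells with Calca and in 11.1% of cells without. By litter these shares were 25.8% against 11.9% and 27.0% against 12.2% in the DEX litters, but 10.3% against 11.9% and 9.29% against 9.55% in the PBS litters. At this depth the absence of a receptor UMI does not show that a cell lacks the receptor.

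Across 20 sums of ILC2-like cells by state and litter, the genes most like each member were named by Pearson correlation of log2(CPM + 1) among 7686 genes. These sums share litters and states, so the values are descriptive. Among the genes most like Calca were Ctla2a (0.90), Ctla2b (0.89), Map1b (0.87) and Rab8b (0.86), and Ramp3 was most like Pdlim1 (0.90), Cnbp (0.88), Osbpl9 (0.86), Aig1 (0.86) and Hey1 (0.84). Ramp1 was most like Gclc (0.88), Colgalt2 (0.85), Dtnbp1 (0.84), Trpm4 (0.83) and Capg (0.80), and Calcrl was most like St8sia4 (0.92), Dhrs11 (0.91), Gm49890 (0.90), Zrsr1 (0.89) and Irf2bp2 (0.88). Vipr2 was most like Med12l (0.89), Gm5544 (0.86), Degs1 (0.85), Fam102a (0.84) and B2m (0.84), whereas Nmur1 reached only 0.77, with Thap2, then Kptn (0.72), H2-Q7 (0.71), Eef2kmt (0.69) and Cyba (0.69). Over 7 classes, Ramp2 was most like Scn7a, Sox17, Ptpn4, Emcn and Nhlrc2 (0.99 to 1.00), and Calcrl was most like Arl15, She, Epb41, Triobp and Ppm1f (0.97 to 0.99).

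In the other classes the members were tested between DEX and PBS litters, 24 gene and class pairs in all. By edgeR's quasi-likelihood test 0 of these had an adjusted p under 0.05 and 4 an unadjusted p under 0.05, while DESeq2 and limma-voom called 0 with 2 and 1 at an unadjusted p under 0.05. With no filter on low genes, 4 of the pairs passed in edgeR. These were Ramp3 in basophil or mast-like, Calcrl and Ramp2 in epithelial-like and Ramp2 in macrophage or monocyte-like cells. The shares of all genes given next are from the filtered fits, and those without the filter were not taken. Nothing is therefore read from the 4 pairs. Over all genes, 0% were called in basophil or mast-like, endothelial-like and mesenchymal-like cells (448, 347 and 320 genes at an unadjusted p under 0.05; DESeq2 called 4, 0 and 0, and limma-voom 0, 0 and 0), 0.0275% in epithelial-like, 0.0515% in macrophage or monocyte-like and 0.213% in B-like cells, where no member was tested.

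Ramp3 in basophil or mast-like cells measured 48.1 and 23.5 CPM in the DEX litters against 23.2 and 16.1 CPM in the PBS litters. Both DEX litters were higher, narrowly so in DEX-2, with log2 fold change 0.86 ± 0.34 and edgeR adjusted p = 0.999. Without DEX-2 it was 1.31 and without DEX-1 it was 0.27, so the value depended on DEX-1. Ramp1 in these cells overlapped, at 34.6, 28.9, 24.3 and 38.1 CPM, with log2 fold change 0.03 ± 0.22 and edgeR adjusted p = 0.999. Whether the Ramp3 and Ramp1 differences of ILC2-like cells exceed those of basophil or mast-like cells was not tested.

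In endothelial-like cells Calcrl and Ramp2 were both lower in each DEX litter than in each PBS litter. Their log2 fold changes were -0.31 ± 0.18 and -0.25 ± 0.14, and neither passed (edgeR adjusted p = 0.995 for both). Litters did not overlap for 42.4% of all genes tested in ILC2-like cells, and this share was not taken in the other classes. Nothing is therefore read from the lack of overlap. Ramp2 was -0.41 without PBS-2. Without PBS-1, Calca was 1.27 in endothelial-like and -1.35 in mesenchymal-like cells. Its values over all litters were 0.17 ± 0.66 and -0.68 ± 0.50 in these classes. In epithelial-like cells Calcrl gave -1.54 ± 0.54 on 80 UMIs in all and Ramp2 -1.03 ± 0.40, each with edgeR adjusted p = 0.8289. Ramp2 of epithelial-like cells rested on PBS-2, at 65.9 CPM against 17.9 to 25.5 in the other litters. It was -0.14 without PBS-2 and -1.56 without PBS-1. Ramp2 in macrophage or monocyte-like cells (1.251 ± 0.56, edgeR adjusted p = 0.706) rested on DEX-2, at 101 CPM against 9.40 to 33.5. It was -1.61 without DEX-2, 1.77 without DEX-1 and 1.61 without PBS-2.

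The wider pathway was covered by 102 other genes in lists of ligands, receptors, peptide processing, receptor signalling and cAMP response. The lists were chosen with earlier results of these data known. In ILC2-like cells 53 of them were tested, and 3 were higher and 3 lower in DEX litters (11.3% called, against 2.34% of all tested genes, 1.11% higher and 1.22% lower), with a median log2 fold change of -0.07 against 0.0031 over all tested genes. None of the 5 tested ligands and 2 tested receptors passed in edgeR's test. The ligand Calcb, a second CGRP gene, gave 1.22 ± 0.47 at 1.54 to 7.15 CPM, with an edgeR adjusted p of 0.277. The peptide-processing list had 1 of 7 higher and 1 of 7 lower, the receptor-signalling list 0 higher and 1 of 23 lower, and the cAMP-response list 2 of 16 higher and 1 of 16 lower, with list medians of 0.04, -0.0017 and -0.12. Against the 1.11% higher and 1.22% lower over all genes, the counts above 0 rest on 1 or 2 genes each, and nothing particular to the lists is read from them.

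Among signalling genes, Arrb2, which encodes beta-arrestin that uncouples activated receptors, fell. It measured 145 and 142 CPM in the DEX litters against 211 and 223 CPM in the PBS litters, with log2 fold change -0.58 ± 0.08 and edgeR adjusted p = 0.00125. Of the cAMP-response genes, Crem, a transcription factor gene induced by cAMP, rose, at 239.7 ± 26.0 CPM after DEX and 128 ± 27.5 CPM after PBS (SD, n = 2 litters each), with log2 fold change 0.92 ± 0.12 and edgeR adjusted p = 0.000944. The nuclear receptor gene Nr4a2 fell, at 347 and 333 CPM in DEX against 551 and 540.1 CPM in PBS litters, with log2 fold change -0.67 ± 0.07 and edgeR adjusted p = 0.000184. Rgs2, which encodes a regulator of G-protein signalling, rose by 0.32 ± 0.08 with an edgeR adjusted p of 0.043, but did not pass without DEX-1 (0.41), without DEX-2 (0.23), in cells with a Gata3 UMI (0.32) or in cells not cycling (0.28). Crem is one of the genes that the study listed for DEX exposure on these cells, so its direction is not independent evidence.

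Pcsk1, which encodes a convertase that cleaves propeptides, was lower on few UMIs, at 2.35 and 0.795 CPM in DEX against 6.60 and 8.27 CPM in PBS litters. Its log2 fold change was -2.16 ± 0.42 with an edgeR adjusted p of 0.0141, and the call was lost without DEX-2 (-1.67), in cells not cycling (-2.02) and with equal state weights (-1.83). Dpp4, a peptidase gene, rose by 0.58 ± 0.14 with an edgeR adjusted p of 0.0449, and the call was lost in 8 of 16 alternatives. These were DESeq2 (0.58, adjusted p = 0.378), thinned cells (0.29, edgeR adjusted p = 0.770), equal state weights (0.43, edgeR adjusted p = 0.242), cells with a Gata3 UMI (0.56), another hashtag rule (0.55), and the fits without DEX-1 (0.65), without DEX-2 (0.51) and without PBS-2 (0.43). Furin, the ubiquitous propeptide convertase, was at 152 ± 2.56 CPM (n = 4) in ILC2-like cells and did not pass.

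Other ligands and receptors were placed in other classes. Of 21 other ligands, 6 reached 20 CPM in a named class: the adrenomedullin gene Adm (23.4 ± 12.8 CPM), the enkephalin gene Penk (97.99 ± 24.3) and Crh (24.5 ± 27.3) in mesenchymal-like cells, the gastrin-releasing peptide gene Grp (85.0 ± 25.5) and the endothelin gene Edn1 (97.5 ± 37.2) in endothelial-like cells, and the neuromedin B gene Nmb (100.2 ± 9.51) in basophil or mast-like cells. Of 26 other receptors, 4 did, among them Ednra (124 ± 36.8) and Ednrb (124 ± 52.0) in mesenchymal-like cells and Ackr3 (198 ± 33.3), which binds adrenomedullin among other ligands, in endothelial-like cells. The genes named here from both lists were below 20 CPM in ILC2-like cells. Among the peptide-processing genes, Ece1 (146 ± 28.4 CPM), Pam (109 ± 12.1 CPM), which encodes the enzyme that amidates peptides, and Cpd (81.6 ± 11.9 CPM) were highest in endothelial-like cells, Cpe (29.3 ± 18.4 CPM) and the peptidase gene Mme (26.8 ± 5.6 CPM) in mesenchymal-like cells, Dpp4 (62.3 ± 5.6 CPM) in epithelial-like cells and Ide (40.5 ± 4.88 CPM) in ILC2-like cells.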

How the data were processed

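Fetal lung cells of 4 litters were profiled in 1 pooled 5′ library. The deposited matrix holds raw UMI counts per gene or hashtag and barcode, which the authors made with Cell Ranger multi (7, mm10 in the submitters' processing notes). Barcodes had already been limited to called cells, and no annotation release is stated in those sources. The other deposited values, per the file headers and contents, are identifiers, symbols and barcodes as the authors deposited them.

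Barcodes with at least 200 genes and at most 5% mitochondrial UMIs were kept (10409 of 10648). Litters were assigned with HTODemux (Seurat 5.3.0), which left 7268 singlets, and 736 hashtag doublets and 2405 barcodes without a tag were not used. Scrublet marked only 1 barcode at its own threshold and so had not worked as a caller, and the 252 singlets of highest score were left out only in an alternative. Clusters (scanpy 1.11.5) were built without 119 genes, among them the members and pathway lists, and named from marker genes, so class names are rebuilt. Another gene counting or cell calling could shift shares and low levels. Hashtags cannot remove doublets within a litter.

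Counts were summed by class and litter and tested with edgeR 4.0.16 (quasi-likelihood, TMM, filterByExpr, two-sided, Benjamini-Hochberg over all genes tested), in R 4.3.3. Alternatives were DESeq2 1.42.0, limma-voom 3.58.1, other filters, cell choices and litter assignments, and each litter left out. The edgeR script was tested on simulated data. The spread behind each p-value is that between 2 litters per group, whose fetuses were pooled. edgeR moderates the variance of each gene over all genes tested. The SE of a log2 fold change is therefore not the gene's own spread between litters, which the litter values and SDs show. Shares of cells were taken after thinning each cell to 2000 UMIs, which left out 26 ILC2-like cells, with 95% Wilson intervals. A count of 0 was read against a limit of 3 counts. Ratios of Calca-positive to Calca-negative cells used a pseudocount of 10 CPM and genes at 20 CPM or more, with the members kept at any level.

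The members and lists were chosen with earlier results of these data known. Besides the members, pathway genes were named when they passed an adjusted p under 0.05 in ILC2-like cells or reached 20 CPM in at least 1 class, and of the latter the ligands, receptors and peptide-processing genes are given with values. The 5 genes most like each member, and the 10 highest and 5 lowest genes of Calca-positive cells, were named by rank. Calcb was named after its values were seen. Values of some genes that these rules name are not reported here.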

Additional observations from a re-analysis of the deposited data

Results flagged for a closer look

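Among 22 groups of 4 litters with a mean of at least 20 CPM, 2 held a litter far from the other 3, and chance alone gives about 1 in 20 such groups. Calcrl in ILC2-like cells was low in DEX-1, at 22.7 CPM against 29.5, 29.99 and 30.2 CPM in the other litters. Ramp2 in epithelial-like cells was high in PBS-2, at 65.9 CPM against 17.9, 23.8 and 25.5 CPM.

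In 3 pairs of classes every DEX litter lay on one side of the PBS litters in one class and on the other side in the other class. Calcrl had a log2 fold change (DEX minus PBS) of 0.51 in mesenchymal-like cells against -0.31 in endothelial-like cells. The same value of 0.51 stood against -1.54 in epithelial-like cells. Ramp2 had -0.25 in endothelial-like cells against 0.88 in ILC2-like cells. The differences between classes were not tested, and 62 pairs of classes were compared. In ILC2-like cells the litters did not overlap for 42.4% of all tested genes (20% higher and 22.4% lower in DEX litters). Lack of overlap is thus common with 2 litters per group, and nothing is read from the number of these pairs.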

How the results depend on the processing

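The count of genes called between DEX and PBS litters in ILC2-like cells was 248 and depended on the processing. It was 109 with DESeq2, 513 with no filter on low genes, 613 with the replicate block, 165 in cells not cycling, 102 in cells thinned to 2000 UMIs and 149 with equal state weights, and 153 to 423 when 1 litter was left out. The other alternatives, limma-voom, other hashtag rules, a mitochondrial limit of 10%, no high Scrublet scores and cells with a Gata3 UMI, gave between 173 and 285. Calls in the pathway lists numbered 6, 3 to 10 with 1 litter left out and 11 with the replicate block. Arrb2, Crem and Nr4a2 passed in all 16 alternatives, Dpp4 was lost in 8, Rgs2 in 4 and Pcsk1 in 3 of the 14 that gave it a value. Where 1 litter is left out, the lone litter is assumed to vary like the others. Replicate numbers share only a number in the labels. The deviations of same-numbered litters correlated at 0.0745 over 10617 genes. With 2 litters per group this is a single value, which cannot decide whether same-numbered litters share a batch. In the block fit no member pair of the other classes passed.

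In ILC2-like cells the log2 fold changes with 1 litter left out ranged from -0.34 to 1.18 for Calca, -0.40 to 0.048 for Calcrl and 1.47 to 1.81 for Ramp3. Nmur1 was -0.18 in thinned cells and Ramp1 -0.72 with equal state weights, while 105 of 111 values moved by less than the spread between litters. Of 191 values in the other classes, 29 reversed direction, 11 were stronger and 151 stayed the same. Of 44 values for member levels across classes, 22 moved. In other classes, with no filter on low genes, Ramp3 in basophil or mast-like cells (0.87), Calcrl (-1.54) and Ramp2 (-1.03) in epithelial-like cells and Ramp2 in macrophage or monocyte-like cells (1.20) passed. The share of all genes that passed in these unfiltered fits was not taken. Calca in basophil or mast-like cells turned to -0.12 with limma-voom and -0.11 with the replicate block, and Ramp2 in mesenchymal-like cells to -0.0013 and -0.0012. With 1 litter left out, basophil or mast-like cells gave -1.01 to 0.62 for Calca, -0.31 to 0.035 for Calcrl, -0.25 to 0.41 for Ramp1, -0.79 to 0.070 for Ramp2, 0.27 to 1.31 for Ramp3 and -0.91 to 0.75 for Vipr2. Endothelial-like cells gave -1.03 to 1.27 for Calca, -1.39 to 0.022 for Ramp1 and -0.41 to -0.078 for Ramp2, and epithelial-like cells -1.59 to 0.69 for Calca, -0.25 to 0.17 for Ramp1 and -1.56 to -0.14 for Ramp2. Macrophage or monocyte-like cells gave -1.61 to 1.77 for Ramp2 and -0.13 to 0.29 for Gal, and mesenchymal-like cells -1.35 to 0.56 for Calca, -1.41 to 0.52 for Ramp1, -0.38 to 0.32 for Ramp2 and -0.17 to 1.15 for Ramp3.

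Shares of cells with a UMI followed the depth they were taken at. At 1000 UMIs they were 69.5% for Calca, 3.43% for Calcrl, 4.40% for Ramp1, 10.9% for Ramp3, 3.48% for Nmur1 and 1.69% for Vipr2 in ILC2-like cells, 34.5% for Calcrl and 87.8% for Ramp2 in endothelial-like cells, and 15.3% for Ramp1 and 14.5% for Gal in macrophage or monocyte-like cells. Without thinning they were 90.05% for Calca, 18.2% for Calcrl, 25.02% for Ramp1, 5.07% for Ramp2, 35.5% for Ramp3, 21.1% for Nmur1 and 12.1% for Vipr2 in ILC2-like cells, 87.2% for Calcrl in endothelial-like cells, and 62.2% for Ramp1 and 47.8% for Gal in macrophage or monocyte-like cells. With finer clusters the mean in macrophage or monocyte-like cells was 179.5 CPM for Ramp1 and 277 CPM for Gal, and with finer ILC2-like states the highest state of Nmur1 was at 49.8 CPM. Ramp2 and Gal in ILC2-like cells are limited by counts of 25 to 47 and of 0 to 1 UMI per litter.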

Other observations

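Among barcodes without a hashtag, 13 fell in the ILC2-like class. They held 122 Calca UMIs, or 3416 CPM, and 3 Calcrl, 4 Vipr2 and 1 Ramp3 UMIs. These barcodes belong to no litter and entered no comparison.

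Of the unnamed clusters, the deep one of 363 barcodes, which carried both epithelial and endothelial markers at a median of 33212 UMIs, held Calcrl at 205 ± 60.2 CPM (SD, n = 4 litters) and Calca at 12.2 CPM.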
